A study of Homo sapiens with 46 samples.

Results

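COX3 silencing was compared with the pCox4 control in 8 RNA-seq libraries, 4 of each, out of 46 libraries of 12 conditions, and the comparison covered 20272 genes. The members were the libraries whose sample records name COX3 or the control (Cneg). All were HEK293T cells, a human embryonic kidney line (a Flp-In T-Rex line per the study's methods), wild type, grown in DMEM with glucose, serum, glutamine and pyruvate. The silenced cells had received 2 µM of a chimera for 48 hours: the mitochondrial targeting presequence of yeast Cox4 (pCox4) joined to a morpholino against the MT-CO3 mRNA, brought into the cells with EndoPorter. Control cells received the presequence without a morpholino under the same conditions. Replicates 1 and 2 of each group formed batch 1, and replicates 3 and 4 formed batch 2. The study's methods call the replicates biological and give the batches as work on separate days with separate reagents. The question was which transcripts, mitochondrial and nuclear, differ in abundance when translation of 1 subunit of complex IV is blocked.

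MT-CO3 encodes COX3, a core subunit of cytochrome c oxidase (complex IV), the enzyme that passes electrons to oxygen at the end of the respiratory chain. Mitochondrial DNA (mtDNA) is transcribed into long RNAs that are cut at tRNAs into rRNAs and mRNAs, and ribosomes inside mitochondria translate these mRNAs. No tRNA lies between MT-ATP6 and MT-CO3, so that junction is cut by another route, and the reading frames of MT-ATP8 and MT-ATP6 overlap on 1 mRNA. A morpholino is an uncharged antisense oligomer that blocks ribosomes and does not recruit RNase H, so a loss of the target mRNA is not a built-in part of its action.

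The bases that the chimera targets, and the end of the neighbouring mRNA, are shown because the mRNAs that fell in mitochondria meet there. In the first line capitals mark the 18 targeted bases, positions 2 to 19 of the mRNA (GRCh38, mitochondrial genome, 9208 to 9225, plus strand). In the second line the capital marks the 1 base that the MT-ATP6 reading frame shares with the start of MT-CO3, at 9207.
MT-CO3 mRNA start, 9207 to 9236: aTGACCCACCAATCACATGcctatcatata
MT-ATP6 mRNA end, 9178 to 9207: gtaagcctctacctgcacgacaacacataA
MT-CO3 (9207 to 9990) is followed by MT-TG, MT-ATP6 occupies 8527 to 9207, and its frame overlaps MT-ATP8 over 46 bases (8527 to 8572). Among the transcripts of the tested genes that could be searched, the 18-base target occurred whole in 1 gene, MT-CO3. In 20229 nuclear genes tested the longest run of target letters was 14 bases, with a median of 7. Among the 58 altered nuclear genes the longest run was 11 bases, in TP53INP1, which was called lower and is described below. The share of all genes with a run of 11 is not given here. None of the 58 held a run longer than 11 bases, where 31 of all 20229 (0.153%) held 12 or more. At that share 58 genes are too few to tell a difference, and binding of the chimera to other transcripts was not tested.

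Total counts ran from 20027292 to 100698084 in the COX3 libraries and from 19944731 to 22664329 in the controls. COX3 replicate 4 had 4.31 times the median total of the other 45 libraries, and it also stood apart in a few transcripts named below. The mtDNA took 4.66% ± 0.325 of counts after COX3 silencing and 4.56% ± 0.414 in the controls (SD, n = 4 each; exact permutation test, two-sided, p = 0.6, adjusted over 2 such tests p = 0.6). That test shuffled the 8 libraries without regard to batch. The 6 markers of HEK293T cells were all expressed and none passed the test; KRT8, a keratin of simple epithelia, had 410 CPM ± 46.3 against 388 ± 46.3 (SD, n = 4 each). Of the markers of other cells, 1 of 4 for blood, 1 of 3 for liver, 1 of 4 for heart muscle and 5 of 5 for fibroblasts reached the test and none was called. Summed over each list, they lay between 0.495 and 1.6 CPM for blood, 0.0887 and 0.284 for liver, 11.5 and 14.1 for heart muscle and 28.5 and 36.1 for fibroblasts across the 8 libraries.

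The targeted mRNA fell, and its upstream neighbour fell with it. MT-CO3 was at 3260, 3364, 4137 and 4351 CPM (TMM-normalized counts scaled to the library total) in COX3 replicates 1 to 4, and at 5077, 4633, 5756 and 5741 CPM in control replicates 1 to 4. Each COX3 library was below each control library, and batch 2 lay above batch 1 in both groups. The means were 3778 ± 547 and 5302 ± 547 CPM (SD, n = 4 each), a log2 fold change of -0.49 with a standard error of 0.0646 (edgeR quasi-likelihood test, Benjamini-Hochberg adjusted p = 9.99e-06). Relative to the control mean of the same batch, 67.2%, 69.3%, 72.0% and 75.7% of the mRNA remained in replicates 1 to 4. The log2 fold change was -0.55 within batch 1 and -0.44 within batch 2.

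MT-ATP6, which encodes a membrane subunit of ATP synthase, was at 2218, 2141, 2637 and 2841 CPM after COX3 silencing and at 2792, 2866, 3138 and 3540 CPM in the controls. The groups overlapped across batches, but within each batch both COX3 libraries lay below both controls. The log2 fold change was -0.33 with a standard error of 0.0545 (adjusted p = 0.000696), leaving 78.4%, 75.7%, 79.0% and 85.1% of the batch control in replicates 1 to 4. MT-ATP8, which is read from the same mRNA, gave 72.2, 62.5, 91.5 and 80.5 CPM against 84.4, 111, 90.6 and 131 CPM. Its log2 difference of -0.45 was similar in size but had a standard error of 0.174 and did not pass the test (adjusted p = 0.297). MT-ATP6 and MT-ATP8 share 46 bases, so their counts are not fully separate.

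The ratio of MT-CO3 to MT-ATP6 was 1.47, 1.57, 1.57 and 1.53 in the COX3 libraries and 1.82, 1.62, 1.83 and 1.62 in the controls. The ranges did not overlap, and the exact permutation test (two-sided) gave p = 0.0286, the smallest it can give for 4 against 4, or 0.0571 adjusted over 2 such tests. It shuffled libraries across batches, so the batch was not taken into account. A ratio as low was also found with other chimeras, at 1.502 ± 0.0600 after ND2 silencing (SD, n = 3) and 1.53 ± 0.0642 after ND4L silencing (SD, n = 4). Per kilobase of gene, MT-CO3 fell from 6762 to 4819 CPM and MT-ATP6 from 4528 to 3611 CPM (means, n = 4 each).

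**Figure D1:**
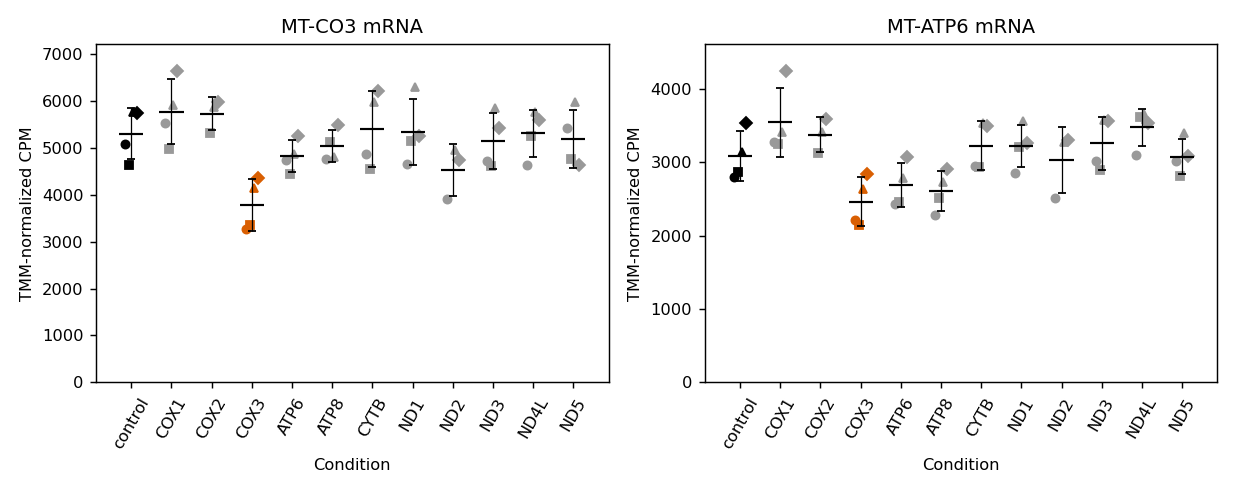
MT-CO3 (left) and MT-ATP6 (right) mRNA in TMM-normalized CPM, in the 46 libraries by condition. Points are libraries (circle, square, triangle and diamond for replicates 1 to 4; control black, COX3 orange), and bars are the mean ± SD; the COX3 mean of 3778 for MT-CO3 is the lowest of the 12, below ND2 at 4532.

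Across the 12 conditions MT-CO3 ranged from a mean of 3778 CPM after COX3 silencing to 5764 ± 693 CPM after COX1 silencing (SD, n = 4). The next lowest means were 4532 ± 552 CPM after ND2 silencing (SD, n = 3) and 4828 ± 341 CPM after ATP6 silencing (SD, n = 4). These did not pass the test against the control (log2 fold changes -0.26, adjusted p = 0.647, and -0.13, adjusted p = 0.545), and the means of neighbouring conditions in this order differed by less than their SDs apart from the step from ND2 to COX3. For MT-ATP6 the COX3 mean of 2459 ± 335 CPM stood beside 2607 ± 267 after ATP8 silencing and 2685 ± 300 after ATP6 silencing (SD, n = 4 each), and these 3 groups lay within 1 SD of each other. The log2 fold changes of MT-ATP6 against the shared control were -0.24 (adjusted p = 0.0649) for ATP8 silencing and -0.20 (adjusted p = 0.207) for ATP6 silencing.

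Both mitochondrial rRNAs rose. MT-RNR1, the RNA of the small mitoribosomal subunit (positions 648 to 1601), was at 845, 811, 832 and 783 CPM after COX3 silencing and at 658, 664, 680 and 607 CPM in the controls. MT-RNR2, the RNA of the large subunit (1671 to 3229), was at 4529, 4162, 5074 and 4434 CPM against 3503, 3503, 4096 and 3726 CPM. No COX3 library overlapped the controls for either rRNA. The log2 fold changes were 0.33 with a standard error of 0.0624 (adjusted p = 0.00572) and 0.30 with a standard error of 0.0628 (adjusted p = 0.0186). In the 8 fits that left out 1 library, MT-RNR1 was called each time and MT-RNR2 in 3. Other treatments showed such a rise as well: against the same control libraries, MT-RNR2 had log2 fold changes of 0.30 after COX1 (adjusted p = 0.0299), 0.35 after COX2 (adjusted p = 0.0058) and 0.31 after ATP8 silencing (adjusted p = 0.0188), and -0.36 after ND2 silencing (adjusted p = 0.0116). MT-RNR1 had 0.52 after ATP6 (adjusted p = 8.71e-07), 0.75 after ATP8 (adjusted p = 3.1e-12) and 0.45 after COX2 silencing (adjusted p = 0.00032), each above the COX3 value, and 0.22 after COX1 silencing (adjusted p = 0.306). Since the libraries were selected for poly(A), these are the rRNA molecules that were captured, and their relation to total rRNA was not measured.

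Of the 13 mtDNA-encoded mRNAs, 2 fell, none rose and 10 had a positive log2 fold change, with a median of 0.10 over the 13. MT-ND3, a complex I subunit gene downstream of MT-CO3, was at 648, 612, 651 and 850 CPM against 496, 459, 551 and 557 CPM. MT-ND6, the complex I mRNA encoded on the other strand, was at 632, 631, 643 and 681 CPM against 518, 547, 564 and 552 CPM. For both, the groups did not overlap, yet the differences of 0.42 (standard error 0.125, adjusted p = 0.148) and 0.25 (standard error 0.0701, adjusted p = 0.114) did not pass the test. The other complex IV mRNAs were level within error: MT-CO1 had a log2 difference of 0.09 (standard error 0.0677, adjusted p = 0.716) and MT-CO2 one of 0.15 (standard error 0.0733, adjusted p = 0.461). The remaining complex I mRNAs MT-ND1, MT-ND2, MT-ND4L, MT-ND4 and MT-ND5 and the complex III mRNA MT-CYB had differences from 0.08 to 0.24, none of which passed.

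**Figure D2:**
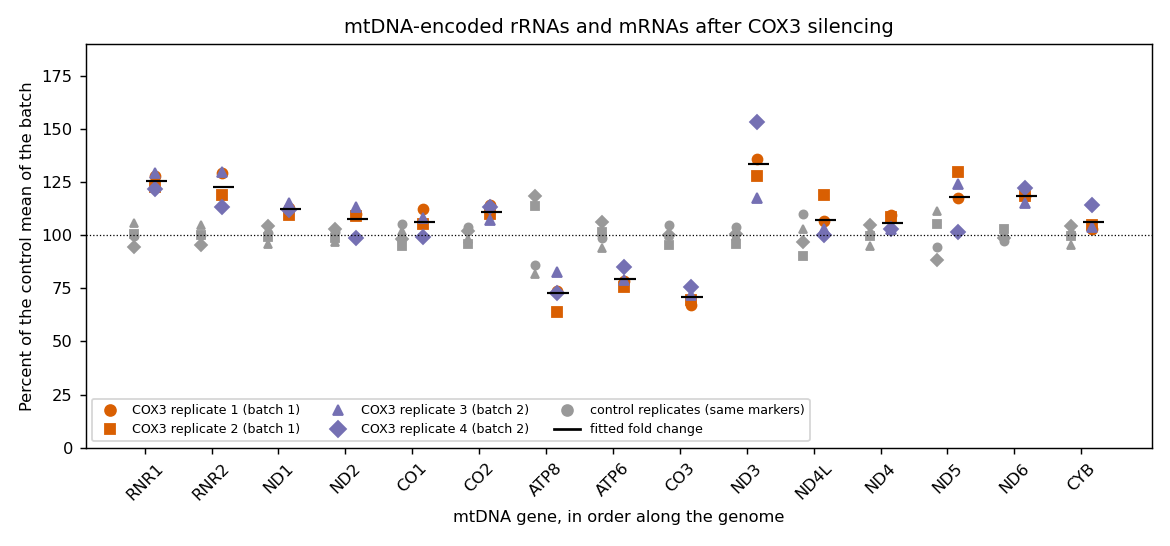
mtDNA-encoded rRNAs and mRNAs in genome order, as percent of the control mean of the same batch. Coloured points are the 4 COX3 libraries, grey points the 4 controls and black bars the fitted fold change; MT-ATP6 and MT-CO3 lie below 100% and the rRNAs above it in each COX3 library.

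Of the mitochondrial tRNA genes, 19 reached the test, 15 had a positive difference and edgeR called none (5 at an unadjusted p under 0.05, none by DESeq2). Over all genes tested, 5.65% were higher and 4.74% lower at an unadjusted p under 0.05. MT-TL1, a leucine tRNA just downstream of MT-RNR2, was at 35.3, 37.0, 38.0 and 23.4 CPM against 23.6, 22.8, 26.0 and 26.0 CPM. COX3 replicate 4 thus fell within the controls while the other 3 COX3 libraries stood above them (log2 difference 0.42, adjusted p = 0.176).

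Copies of mtDNA in the nuclear genome share most of their sequence with it, so counts assigned to them are uncertain. On chromosome 1, MTCO1P12 (631074 to 632616) was at 36.1, 30.02, 35.6 and 56.2 CPM against 26.8, 24.6, 25.9 and 28.3 CPM. MTND2P28 (629640 to 630683) was at 125, 114, 137 and 146 CPM against 90.0, 96.5, 112 and 117 CPM. Both were called higher, by 0.59 (adjusted p = 0.0175) and 0.33 (adjusted p = 0.0186). MTATP6P1 (633696 to 634376), the copy of MT-ATP6, was at 96.4, 103, 131 and 230 CPM against 204, 184, 204 and 232 CPM. Replicate 4 was again the exception, and the log2 difference of -0.60 did not pass (adjusted p = 0.07); it was -0.96 in batch 1 and -0.26 in batch 2. Of 10 such copies tested, 2 were called higher with the 8 libraries, and without COX3 replicate 4 the count was 0 higher and 1 lower, MTATP6P1.

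Over all genes, 62 of 20272 transcripts were altered at an adjusted p under 0.05 (0.306%), 36 of them higher (0.178%) and 26 lower (0.128%). Of the 20272, 10075 had a positive and 10197 a negative difference. Changes were modest: over the 62, the absolute log2 fold change had a median of 0.31, and the extremes were -0.69 and 0.87. Only 8 of the 62 reached an absolute log2 fold change of 0.5. All 26 lower transcripts were protein-coding, as were 28 of the higher ones; the other 8 were the 2 rRNAs, 4 pseudogenes, LINC02001 and the antisense RNA AL365181.3. Each of the 62 lay on 1 side of the batch control in the 4 COX3 libraries and had the same sign in both batches. The 62 were called from these same libraries, so such agreement is partly built in. Its share over all genes is not given here. In 45 of them the groups did not overlap at all; over all genes 1.92% did not overlap with COX3 higher and 2% with COX3 lower. The test of the difference between batches called 0 genes with edgeR, with 788 at an unadjusted p under 0.05; DESeq2 was not run on it. Just inside the threshold was ANKRD10 (adjusted p = 0.0473) and just outside was UCHL1 (adjusted p = 0.0518).

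**Figure D3:**
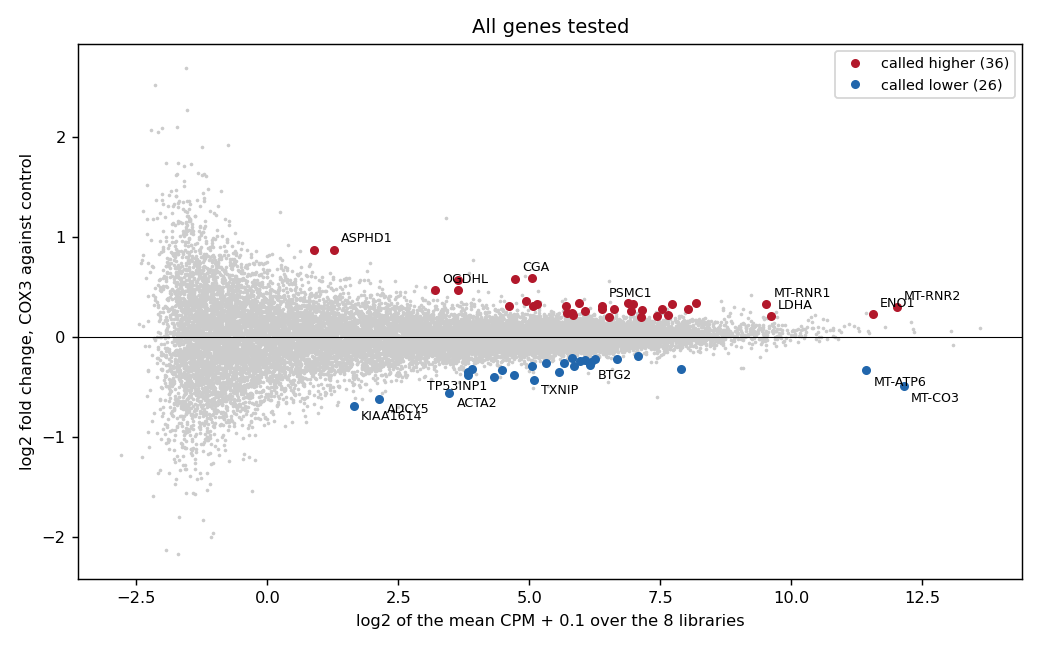
Log2 fold change of COX3 against control for 20272 genes, plotted against the log2 of the mean CPM over the 8 libraries. Red points are the 36 transcripts called higher, blue the 26 called lower and grey the rest; most called transcripts have a mean of at least 10 CPM (57 of 62) and an absolute change under 0.5.

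The count of 62 moved by more than 1.5 times when 1 library was left out, for 7 of the 8 libraries. It was 15, 25 and 32 without COX3 replicate 1, 3 or 4 and 31, 28, 30 and 11 without control replicate 1, 2, 3 or 4, and it was 53 without COX3 replicate 2. In each of these fits the 62 transcripts kept their sign, though the fits share most of their libraries with the main one. A group of 11 was called in all 8 fits, and it comprised MT-CO3, MT-ATP6, MT-RNR1, BTG2, MEX3B, TP53INP1, TXNIP, PSMC1, PSMD1, MED10 and LINC02001. HOXA13, HOXA9, MOXD1, HIST3H2A, SFXN3, KIAA1614 and ANKRD10 were called in none of them.

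**Figure D4:**
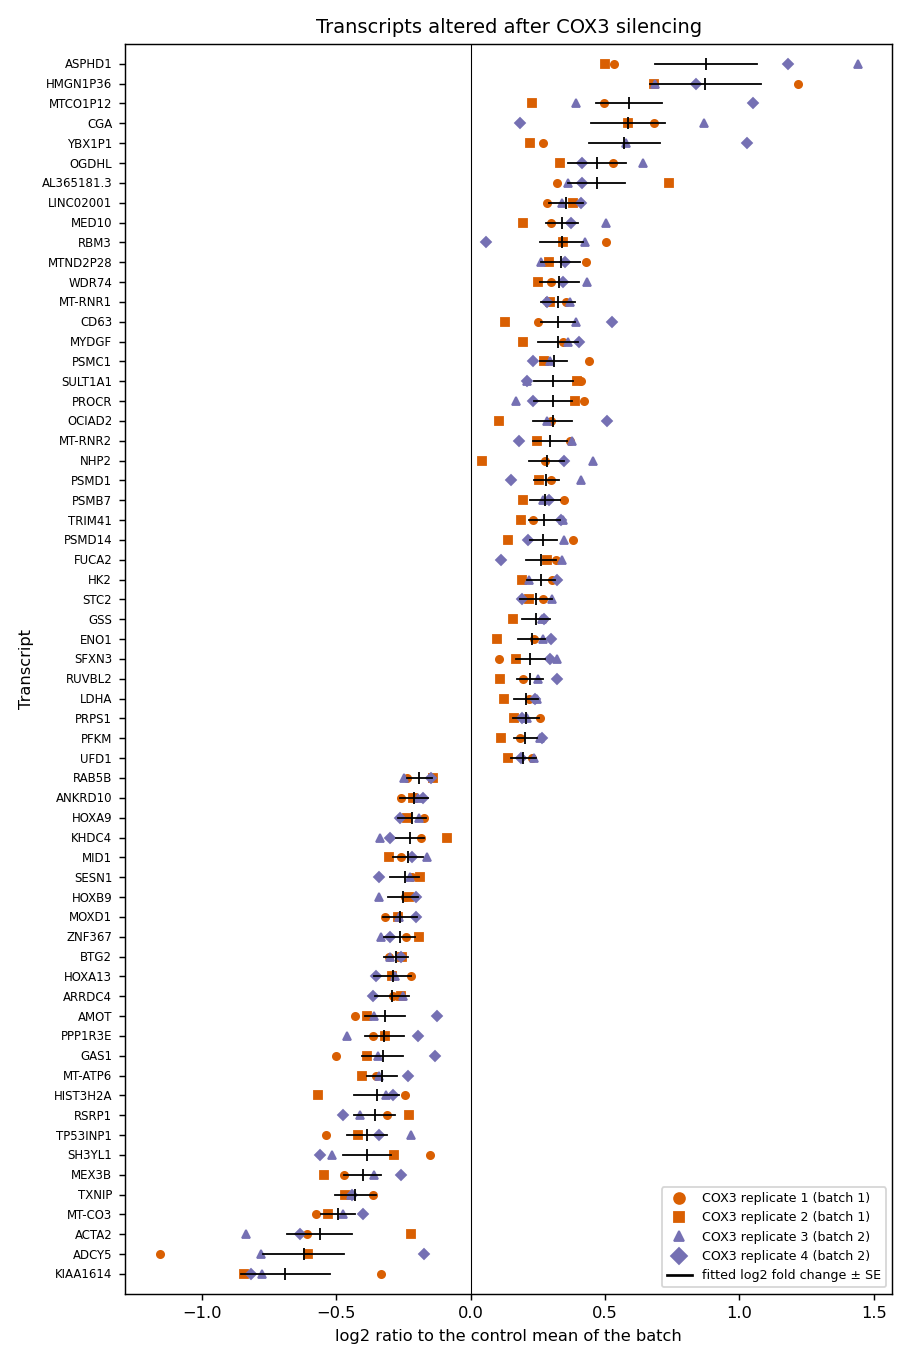
The 62 altered transcripts in order of fitted log2 fold change. Points are the log2 ratio of each COX3 library to the control mean of its batch (orange batch 1, purple batch 2), and black lines are the fitted value ± SE. The transcripts were called from these same libraries, and the points of each lie on 1 side of 0, from KIAA1614 at the lower end to ASPHD1 at the upper end.

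Among lower nuclear transcripts, 3 were targets of p53, the transcription factor that restrains growth after damage or stress. BTG2, an antiproliferative gene, was at 62.4, 64.5, 64.6 and 66.5 CPM after COX3 silencing and at 79.1, 75.1, 81.2 and 77.8 CPM in the controls. The libraries of each group were close together and the groups were well apart (log2 fold change -0.28, standard error 0.0455, adjusted p = 0.000696). TP53INP1, which acts in p53 signalling and autophagy, was at 21.0, 22.8, 24.3 and 22.4 CPM against 29.7, 31.2, 26.9 and 29.7 CPM (log2 fold change -0.39, standard error 0.0746, adjusted p = 0.00652). SESN1, a sestrin that restrains mTORC1, fell to 57.6 ± 2.07 from 68.2 ± 3.25 CPM (SD, n = 4 in both groups; log2 fold change -0.25, adjusted p = 0.0271).

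Of 27 p53 targets tested, these 3 were called lower and none higher, where 0.128% of all genes were called lower. In this list 23 had a negative difference, against 10197 of all 20272 genes, and the median was -0.13 (all genes: -0.00). The median was -0.13 in batch 1 and -0.15 in batch 2, and BTG2 and TP53INP1 were called without COX3 replicate 4. CDKN1A, the cell cycle inhibitor p21, had a difference of -0.25 (adjusted p = 0.0639), and MDM2, the ubiquitin ligase of p53, one of -0.09 (adjusted p = 0.652). At the other end of the list GADD45A, a DNA damage response gene, had a difference of 0.12 (adjusted p = 0.5).

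TXNIP and ARRDC4, paralogous arrestins that lower glucose uptake, fell together. TXNIP (chromosome 1, 145992435 to 145996600, minus strand) was at 26.5, 24.7, 32.4 and 32.5 CPM against 35.1, 33.1, 46.2 and 41.9 CPM. ARRDC4 (chromosome 15, 97960698 to 97973838, plus strand) was at 49.9, 51.0, 56.1 and 51.9 CPM against 59.2, 62.8, 65.0 and 68.7 CPM. In both cases the highest COX3 library was below the lowest control. The log2 fold changes were -0.43 (standard error 0.0760, adjusted p = 0.00182) and -0.29 (standard error 0.0624, adjusted p = 0.0186). The factors that drive them from carbohydrate response elements, MLXIP (MondoA), MLXIPL (ChREBP) and their partner MLX, had differences of 0.01, 0.06 and -0.01 and were not called, so 2 of the 5 genes of this axis were lower and its median was -0.01. Without COX3 replicate 4, TXNIP was called and ARRDC4 was not.

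The promoters of this pair are shown because they moved together. The sequences are from RefSeq (GRCh38.p14, from 250 bases before to 50 after the start). Capitals mark matches to the letters of a carbohydrate response element, a pair of CACGNG boxes with NNNNN between them, or of a single E-box, CACGTG. In TXNIP and ARRDC4 the paired boxes were searched on the strand of the gene only, and CACGTG reads the same on both strands.
TXNIP, chr1:145996644-145996673, minus strand: gatgtgCACGAGggcagCACGAGcctccgg
ARRDC4, chr15:97960481-97960510, plus strand: aaacggcctgtgCACGTGcacgccggagcc
The TXNIP match lies 88 to 72 bases before the start in 1 of its 2 listed promoters, and the ARRDC4 match 210 to 205 bases before. Of 35116 promoters, 20 (0.057%) held the longer pattern on either strand and 2548 (7.26%) held CACGTG, which the longer pattern can contain. A match of letters is no sign that a factor was bound.

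Other lower transcripts came from unrelated roles. MEX3B, an RNA-binding ubiquitin ligase, was at 16.9, 16.0, 17.2 and 18.4 CPM against 24.2, 22.5, 22.2 and 21.9 CPM. Its groups were far apart for their spread (log2 fold change -0.40, standard error 0.0697, adjusted p = 0.00151). ACTA2, smooth muscle actin, fell to 8.86 ± 1.17 from 13.2 ± 1.59 CPM (SD, n = 4 in both groups; log2 fold change -0.56, adjusted p = 0.0186). KIAA1614 and ADCY5, an adenylyl cyclase, showed the largest decreases of the altered transcripts, -0.69 and -0.62 (adjusted p = 0.045 each), at means under 6 CPM. DESeq2 called neither of them. GAS1, a growth arrest protein of the cell surface, SH3YL1, RSRP1, the histone gene HIST3H2A, AMOT, a Hippo pathway scaffold, and PPP1R3E, a glycogen-targeting phosphatase subunit, changed by -0.33, -0.39, -0.36, -0.35, -0.32 and -0.32.

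HOX genes, the homeobox genes of body axis patterning that mark the embryonic origin of a cell, held 3 of the lower transcripts. HOXA9 was at 72.7, 69.6, 71.6 and 68.3 CPM against 82.2, 82.0, 82.1 and 81.5 CPM, with very little spread in the controls. The log2 fold changes of HOXA13, HOXB9 and HOXA9 were -0.29, -0.25 and -0.22 (adjusted p = 0.0387, 0.0268 and 0.0335). Of 38 HOX genes tested, 28 had a negative difference, against 10197 of all 20272 genes, and the median was -0.13. Of all genes, 0.128% were called lower. The list was chosen after these values were seen, and only HOXB9 among them was called without COX3 replicate 4.

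Among higher transcripts, 4 encoded subunits of the 26S proteasome, the protease that degrades ubiquitylated proteins. PSMC1, an ATPase of its regulatory particle, was at 103, 91.9, 89.1 and 85.3 CPM against 75.1, 77.0, 70.3 and 75.05 CPM. PSMD1, the largest subunit of that particle, was at 305, 295, 294 and 245 CPM against 243, 253, 224 and 218 CPM. For PSMC1 the groups did not overlap, and for PSMD1 only COX3 replicate 4 fell below a control, one of the other batch. The log2 fold changes were 0.31 (standard error 0.0501) and 0.28 (standard error 0.0465), each with an adjusted p of 0.000696. PSMB7, a catalytic subunit, and PSMD14, the deubiquitylating subunit, rose by 0.28 (adjusted p = 0.0102) and 0.27 (adjusted p = 0.00457).

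Of 39 proteasome genes tested, these 4 were called higher and none lower, 34 had a positive difference and the median was 0.15, the same in each batch. The list was chosen after the values of its members were seen. All 4 were still called without COX3 replicate 4, and PSMC1 and PSMD1 were called without COX3 replicate 1 or without control replicate 4. PSMD2 (0.21, adjusted p = 0.0518) and PSMB5 (0.24, adjusted p = 0.0583) lay just outside the threshold, and PSMA2 had the lowest difference, -0.15 (adjusted p = 0.688).

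Glycolysis contributed another 4 higher transcripts. HK2, a hexokinase that phosphorylates glucose on entry, was at 78.7, 72.9, 68.0 and 73.2 CPM against 64.0, 63.7, 62.5 and 54.6 CPM. PFKM, a phosphofructokinase, was at 149, 141, 155 and 156 CPM against 133, 128, 130 and 129 CPM. LDHA, which turns pyruvate into lactate, was at 886, 833, 819 and 814 CPM against 760, 766, 714 and 667 CPM. These 3 and ENO1, an enolase, were higher in each COX3 library than in each control. The log2 fold changes were 0.26 for HK2 (standard error 0.0528, adjusted p = 0.0115), 0.20 for PFKM (standard error 0.0419, adjusted p = 0.0135), 0.21 for LDHA (standard error 0.0447, adjusted p = 0.0186) and 0.23 for ENO1 (standard error 0.0488, adjusted p = 0.0186).

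Among all 20272 genes, 0.178% were called higher and 10075 had a positive difference. Of 25 glycolysis genes tested, 24 had a positive difference, none was called lower and the median was 0.10 (0.08 in batch 1 and 0.14 in batch 2). None was called without COX3 replicate 4, COX3 replicate 1 or control replicate 4, while the median stayed between 0.09 and 0.11 in these 3 fits. ALDOA, an aldolase at 4.07 CPM ± 0.584 against 4.10 ± 0.875 (SD, n = 4 each), had a difference of -0.00 (adjusted p = 0.999). Targets of the hypoxia-inducible factors, which share genes with glycolysis but were listed apart, had a median of -0.00 over 17 genes with 8 positive and none called (0 at an unadjusted p under 0.05, 0 by DESeq2).

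Higher transcripts outside these lists included secretory and membrane proteins. CD63, a tetraspanin of endosomes and exosomes, rose to 235 ± 12.3 from 188 ± 21.9 CPM (SD, n = 4 in both groups; log2 fold change 0.33, adjusted p = 0.00681). MYDGF, a secreted growth factor, PROCR, the endothelial protein C receptor, FUCA2, a secreted fucosidase, and OCIAD2 rose by 0.32, 0.31, 0.26 and 0.31. STC2, stanniocalcin 2, rose by 0.24 (adjusted p = 0.0404). CGA, the common alpha subunit of glycoprotein hormones, was at 46.2, 43.3, 23.6 and 14.7 CPM against 27.3, 30.4, 14.4 and 11.5 CPM. Batches differed in CGA by more than the groups did, and within each batch COX3 was higher (log2 fold change 0.58, adjusted p = 0.0386).

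MED10, a subunit of the Mediator of transcription, was at 74.1, 68.8, 68.6 and 62.5 CPM against 55.4, 65.0, 48.8 and 47.8 CPM. Only COX3 replicate 4 fell below a control, again one of the other batch (log2 fold change 0.34, standard error 0.0608, adjusted p = 0.00195). RBM3, a cold-inducible RNA-binding protein, and WDR74, a ribosome assembly factor, rose by 0.34 and 0.33 (adjusted p = 0.0397 and 0.0198). OGDHL, a relative of a TCA cycle dehydrogenase, rose to 10.6 ± 1.16 from 7.55 ± 0.748 CPM (SD, n = 4 in both groups; 0.47 on the log2 scale, adjusted p = 0.0319). GSS, glutathione synthetase, rose by 0.24 (adjusted p = 0.0186), SULT1A1, a sulfotransferase, by 0.31 (adjusted p = 0.0319) and SFXN3, a sideroflexin of the mitochondrial inner membrane, by 0.22 (adjusted p = 0.0452). ASPHD1 had the largest increase of the altered transcripts, to 2.99 ± 0.247 from 1.64 ± 0.474 CPM (SD, n = 4 in both groups; log2 fold change 0.87, adjusted p = 0.0186), at a low level. DESeq2 did not call ASPHD1. HMGN1P36 and YBX1P1 (0.87 and 0.57) are processed pseudogenes of expressed genes, so their counts are uncertain. DESeq2 called YBX1P1 and did not call HMGN1P36.

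Targets of NRF2, the regulator of the antioxidant response, had a median of 0.16 over 19 genes, 17 of them positive, but edgeR called none (10 at an unadjusted p under 0.05, none by DESeq2). HMOX1, heme oxygenase 1, was at 129, 132, 105 and 73.1 CPM against 77.7, 98.4, 64.7 and 55.6 CPM. Within each batch its COX3 libraries were above the controls, with a difference of 0.56 (standard error 0.141, adjusted p = 0.0639). Without COX3 replicate 4, HMOX1 was called higher.

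Nuclear genes of oxidative phosphorylation showed small positive differences and no call by edgeR. Among all 20272 genes tested, 10075 had a positive difference. Of 14 nuclear complex IV subunits tested, 13 were positive with a median of 0.07 and 1 had an unadjusted p under 0.05 (none called by DESeq2). The most and least positive of those at 1 CPM or more were COX7C (0.20, adjusted p = 0.567) and COX7B (0.03, adjusted p = 0.966), both small subunits. Of 31 complex IV assembly factors, 27 were positive with a median of 0.07 and 3 had an unadjusted p under 0.05 (none called by DESeq2); the copper chaperone COX17 had a difference of 0.19 (adjusted p = 0.479) and COX16 one of -0.26 (adjusted p = 0.525). Complex I subunits had a median of 0.09 over 37 genes, with 10 at an unadjusted p under 0.05 and 1, NDUFB9, called by DESeq2. Subunits of complexes II, III and V had a median of 0.08 over 31 genes, with 4 at an unadjusted p under 0.05 and none called by DESeq2. These medians differed between libraries. In COX3 replicates 1 to 4 the median log2 ratios to the batch control were 0.19, 0.01, 0.01 and 0.12 for complex IV subunits. They were 0.08, 0.02, 0.06 and 0.08 for its assembly factors and 0.15, 0.01, 0.07 and 0.22 for complex I. For complexes II, III and V they were 0.13, -0.004, 0.01 and 0.13.

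Genes of protein synthesis leaned the same way. Cytosolic ribosomal proteins had a median of 0.07 over 85 genes with 71 positive, and mitochondrial ribosomal proteins one of 0.07 over 83 genes with 73 positive. The lean was uneven between libraries. In COX3 replicates 1 to 4 the median log2 ratios to the batch control were 0.14, -0.02, -0.02 and 0.16 for the cytosolic list. For the mitochondrial list they were 0.10, 0.02, 0.08 and 0.11. Neither list had a member called by edgeR, with 12 and 21 at an unadjusted p under 0.05 and 0 and 1 (DAP3) called by DESeq2. Of 41 ribosome biogenesis genes, 38 were positive with a median of 0.10, and NHP2, a protein of box H/ACA ribonucleoproteins, was called higher (0.28, adjusted p = 0.0319) but not without COX3 replicate 4. Abundant genes as a class also leaned positive: 58.4% of the 2339 genes with a mean of at least 100 CPM had a positive difference, with a median of 0.01, against 48.2% of the 8070 genes between 10 and 100 CPM.

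Stress programmes known from respiratory chain defects showed few calls. Of 42 genes of the ATF4 integrated stress response, STC2 alone was called by edgeR, 30 were positive and the median was 0.08. At an unadjusted p under 0.05, 12 were higher and 2 lower, against 5.65% and 4.74% of all genes tested. DESeq2 called 2 higher, and without COX3 replicate 4 edgeR called 0. SLC7A11, the cystine transporter, was at 31.7, 31.5, 31.3 and 24.7 CPM against 23.9, 23.1, 24.4 and 22.1 CPM. Its groups did not overlap, COX3 replicate 4 was nearest to the controls and the difference of 0.34 did not pass (adjusted p = 0.132). CEBPB, a transcription factor of that response, had the lowest difference among those at 1 CPM or more, -0.26 (adjusted p = 0.456). Mitochondrial chaperones and proteases had a median of 0.10 over 17 genes with none called by edgeR (6 at an unadjusted p under 0.05, none by DESeq2), between PHB, a prohibitin, at 0.21 and the protease OMA1 at -0.14. Factors of mtDNA expression had a median of 0.03 over 39 genes with none called (4 at an unadjusted p under 0.05, none by DESeq2).

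The lists that leaned to lower values without a call by edgeR or DESeq2 were cholesterol synthesis and interferon response genes. Cholesterol genes had a median of -0.07 over 25 genes, 20 of them negative, with 8 at an unadjusted p under 0.05. Interferon genes had a median of -0.03 over 25, with 4 at an unadjusted p under 0.05. Genes of the ERK and immediate early response had a median of -0.03 over 25 genes with wide spread, from ETV4 at 0.64 (adjusted p = 0.106) to EGR3 at -0.60 (adjusted p = 0.214), and matrix and adhesion genes one of 0.01 over 41. Each of these had 8 members at an unadjusted p under 0.05 and none called by either tool. None of the 9 genes that the study followed from its proteomics was called by either tool (2 at an unadjusted p under 0.05), with differences between 0.24 for TMEM186 and -0.19 for ZNF703.

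**Figure D5:**
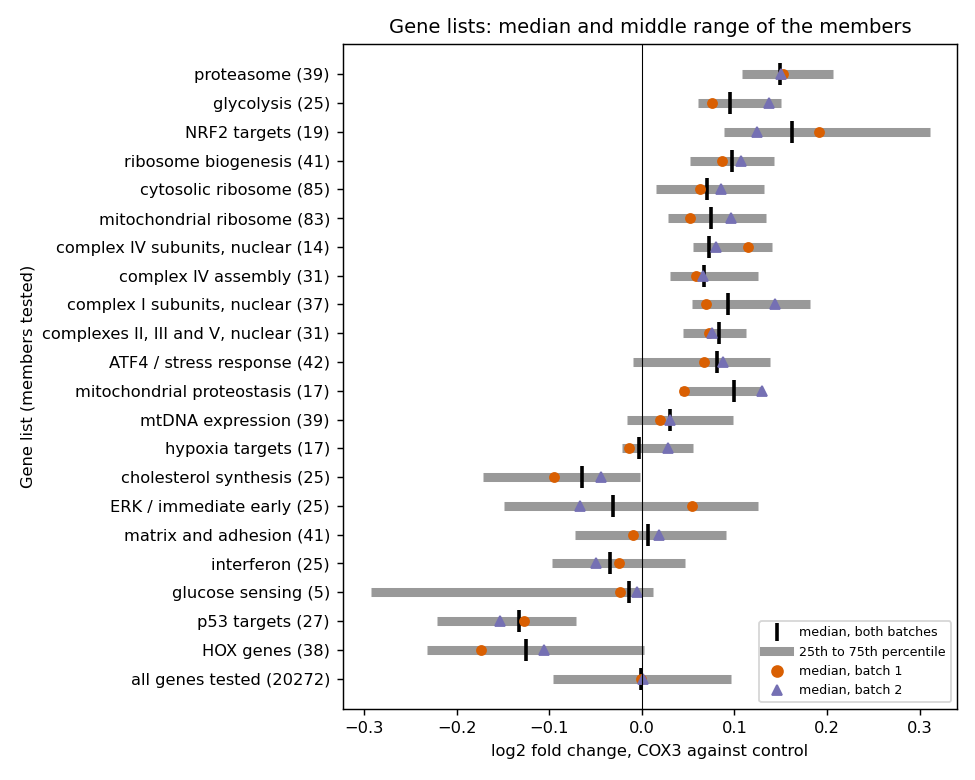
Median (black tick) and middle range from the 25th to the 75th percentile (grey bar) of the log2 fold changes of COX3 against control over the members of each gene list, with the medians within batch 1 (orange) and batch 2 (purple). Among the lists drawn, which leave out the mtDNA genes and their nuclear copies, the proteasome and NRF2 lists have the highest medians, 0.15 and 0.16, and the p53 and HOX lists the lowest, -0.13 each, and the median of all genes tested is -0.00.

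Against the mean of the other 10 treatments, a comparison that uses no control library, 11 of 20272 transcripts differed after COX3 silencing (0.0543%; 1001 at an unadjusted p under 0.05). The lower ones were MT-CO3 (-0.46, adjusted p = 2.77e-08), MT-ATP6 (-0.35, adjusted p = 4.71e-07), MTATP6P1 (-0.62, adjusted p = 0.013), BTG2 (-0.19, adjusted p = 0.0041), SCAPER (-0.26, adjusted p = 0.0403) and SPARC, a matrix glycoprotein (-0.44, adjusted p = 0.0313). The higher ones were MT-TL1 (0.73, adjusted p = 1.52e-06), MT-CO1 (0.24, adjusted p = 0.02), MT-RNR2 (0.23, adjusted p = 0.02), PSMD1 (0.18, adjusted p = 0.0127) and PSMC1 (0.17, adjusted p = 0.0313). The mean of the other treatments includes conditions in which some of these transcripts are themselves low. MT-CO1 is the target in COX1 cells, where its log2 fold change against the control was -1.33, and MT-TL1 was at 6.15 CPM ± 1.23 in ND1 cells (SD, n = 4; log2 fold change -2.00, adjusted p = 3.28e-13). MT-RNR2 was lowest in ND2 cells, and its COX3 mean of 4550 CPM lay within 1 SD of those of COX1 (4556), COX2 (4772) and ATP8 cells (4591). In the 4 fits that leave out a COX3 library, MT-CO3, MT-ATP6 and MT-TL1 were called each time, BTG2 in 3, MT-RNR2 and PSMD1 in 2, MT-CO1, MTATP6P1, PSMC1 and SPARC in 1 and SCAPER in 0. The count was 3 without COX3 replicate 1, 4 without COX3 replicate 3 and 8 without COX3 replicate 2, and it was 16 without COX3 replicate 4, where PSMC1 and SCAPER lost their calls (adjusted p = 0.0546 and 0.0663).

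TXNIP and ARRDC4, called against the control, did not differ from the mean of the other treatments (differences of 0.13, adjusted p = 0.926, and 0.11, adjusted p = 0.928). HK2, PFKM, LDHA and ENO1 had differences of 0.12, 0.08, 0.10 and 0.09 from that mean, none of which passed, and CD63 had one of 0.02. TP53INP1 and MEX3B differed by -0.22 (adjusted p = 0.237) and -0.21 (adjusted p = 0.162).

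COX1 and COX2 cells, silenced for other mtDNA-encoded subunits of complex IV, were compared with COX3 cells directly. Against COX1 cells (n = 4), 10 transcripts differed (0.0493%). MT-CO3 and MT-ATP6 were lower in COX3 cells by -0.61 (adjusted p = 2.17e-09) and -0.53 (adjusted p = 1.12e-09), as were BTG2 (-0.27, adjusted p = 0.000789), SPARC (-0.61, adjusted p = 0.0148) and MTATP6P1 (-0.85, adjusted p = 0.00249). MT-CO1 and its nuclear copy MTCO1P12 were higher by 1.42 (adjusted p = 1.36e-22) and 1.43 (adjusted p = 1.82e-11). MT-TN, MT-TC and MT-TY, tRNA genes just before MT-CO1 but on the opposite strand, were lower than in COX1 cells by -1.15, -1.48 and -2.05. Against the control their differences after COX3 silencing were 0.01, -0.15 and 0.16, and none was called. Leaving out COX3 replicate 4 raised the count to 20. Against COX2 cells (n = 3), 2 transcripts differed (0.00987%), MT-CO3 (-0.57, adjusted p = 1.08e-06) and MT-ATP6 (-0.42, adjusted p = 2.21e-05).

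The effects against the shared control libraries are given side by side. BTG2 had log2 fold changes of -0.28 after COX3, -0.01 after COX1 and -0.22 after COX2 silencing. TXNIP had -0.43, -0.78 and -0.44, and its direct difference between COX3 and COX1 cells was 0.35 (adjusted p = 0.0636). LDHA had 0.21, 0.07 and 0.25, CD63 had 0.33, 0.37 and 0.36, and PSMC1 had 0.31, 0.15 and 0.19. The direct differences of LDHA, CD63 and PSMC1 between COX3 and COX1 or COX2 cells did not pass the test. List medians after COX3, COX1 and COX2 silencing were 0.10, 0.07 and 0.14 for glycolysis and 0.10, 0.04 and 0.13 for ribosome biogenesis. They were 0.16, 0.04 and 0.11 for NRF2 targets, -0.13, -0.02 and -0.07 for p53 targets and -0.13, -0.10 and -0.16 for HOX genes. Against the mean of the other 10 treatments, COX3 medians were 0.03, 0.05, 0.08, -0.10 and -0.05 in that order. Differences between these medians were not tested.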

How the data were processed

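The authors deposited raw counts of reads per gene (58735 genes) from poly(A)-enriched RNA of HEK293T cells in 46 libraries. The build was GRCh38 p12, and the submitters' processing notes name R 4.3.0, DESeq2 1.40.2 and limma 3.56.2. The aligner, the counter and its strand setting are not given in the sources used here, so overlapping or antisense genes cannot be told apart from their partners. The authors corrected for a batch (replicates 1 and 2 against 3 and 4), but the deposited counts precede that correction. A gene length in bases stands in the same table and served for levels per kilobase.

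The main analysis used edgeR 4.0.16 in R 4.3.3: a quasi-likelihood F test with TMM scaling on 1 model of 46 libraries, with 12 condition terms, a batch term and 33 residual degrees of freedom. filterByExpr (minimum count 10) left 20272 genes, and Benjamini-Hochberg adjustment ran over these. Transcripts under an adjusted p of 0.05 are termed altered or called. CPM values are TMM-normalized and were computed here. Alternatives used DESeq2 1.42.0 and limma 3.58.1. The scripts were tested on simulated counts. No pair of replicates looked like 1 library deposited again (chi-square per degree of freedom from 3.47 to 24.8).

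The comparison, the gene lists and the genes named were chosen with earlier results of these data known, and the proteasome, HOX and mtDNA-like pseudogene lists, as well as the list counts without COX3 replicate 4, after their values were seen. The rule for naming took in the mtDNA-encoded mRNAs, the 15 highest and 12 lowest called protein-coding genes with a mean of at least 1 CPM, called list members, the extremes of each list at that level, genes called against the other treatments and those the study followed. Further called genes, CDKN1A, MDM2, PSMD2, PSMB5, MT-TL1 and the mtDNA copies were added after their values were seen. Target and mRNA letters come from GENCODE transcripts (GRCh38) and promoters from RefSeq.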

Additional observations from a re-analysis of the deposited data

Results flagged for a closer look

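A sample far from the other 3 of its group was looked for in 210 groups (105 named genes in COX3 and control libraries) by Dixon's ratio against its 95% critical value; 10 groups passed, where chance gives about 1 in 20, and 4 of these were COX3 replicate 4, the library with the largest total. In COX3 replicate 4, MT-ND3 was at 849.9 CPM (the others 611.5 to 650.7), ATP5F1D, a subunit of ATP synthase, at 74.85 CPM (58.92 to 59.67), SLC7A11 at 24.73 CPM (31.33 to 31.75) and ETV4 at 12.86 CPM (18.77 to 19.69). DNM1L, the fission GTPase, was at 183.7 CPM in COX3 replicate 3 (164.4 to 167.6). In control replicate 4, HK2 was at 54.64 CPM (62.45 to 64.01) and MRPS28 at 4.688 CPM (5.741 to 5.862). PNKD was at 61.09 CPM in control replicate 1 (47.97 to 49.54), COL9A3 at 1.146 CPM in control replicate 2 (1.641 to 1.732) and OMA1 at 16.43 CPM in control replicate 3 (20.36 to 21.07). HK2 is the 1 gene among these called against the control; its log2 fold change was between 0.22 and 0.29 when any 1 library was left out, and it was called in 5 of the 8 fits.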

How the results depend on the processing

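All 62 transcripts kept their sign in each alternative, but the alternatives use the libraries from which the 62 were called. The number altered against the control (62; 36 higher, 26 lower) and against the other treatments (11) was, in that order, 2 (0 and 2) and 3 without a batch term, where the 2 were BTG2 and MEX3B and MT-CO3 kept -0.49 at an adjusted p of 0.227; 147 (94 and 53) and 17 with DESeq2, and 16 against COX1; 168 (100 and 68) and 18 with DESeq2 on counts corrected by removeBatchEffect; 254 (203 and 51) and 66 without a filter; 9 (4 and 5) and 6 in batch 1 alone; and 7 (6 and 1) and 1 in batch 2 alone. Fitting only the 8 libraries compared gave 95, 67 of them higher, and gives no value against the other treatments. A minimum absolute log2 fold change of 0.5 left 8, and COX3 replicate 4 drawn down to the median depth gave 21 against the other treatments. RLE size factors, library sizes from nuclear genes and a stricter filter gave 63, 65 and 68. DESeq2 called 58 of the 62, but not KIAA1614, ADCY5, ASPHD1 and HMGN1P36. It called 6 p53 targets, 9 proteasome genes and 6 HOX genes. The cause of these shifts was not tested.

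With the replicate number as a block in place of the batch, 158 were altered (93 and 65) and 27 differed from the other treatments. Within a batch the deviations of same-numbered COX3 and control libraries correlated at -0.08 and -0.05. Deviations within a group and batch mirror each other, so these values cannot decide whether same-numbered samples share more than a number.

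Leaving out 1 library of COX3 or control gave 11 to 53 altered (5 to 40 higher, 6 to 17 lower), 3 to 16 against the other treatments (where only the COX3 libraries enter), 9 to 20 against COX1, 2 to 3 against COX2, and -0.53 to -0.47 for MT-CO3. Genes that were not called changed sign, among them MT-TD, CYP51A1 and COL9A3, which had differences of -0.31, 0.23 and 0.20 with all 8 libraries: in batch 1 alone MT-TD (0.0710), CYP51A1 (-0.00329), COA3 (-0.00111) and CMC1 (-0.0162); in batch 2 alone COX7B (-0.0707), ATP5F1D (0.0419), ALDOA (0.00545), RPL28 (0.114), RRS1 (0.0644), SMIM26 (-0.0250) and PET100 (-0.107); with COX3 replicate 4 drawn down ALDOA (0.0382) and COL9A3 (-0.0722); and ALDOA also with the block (0.00689), removeBatchEffect (0.000263), nuclear library sizes (0.00331), no filter (0.0187) and 8 libraries (0.00556). Leaving out 1 library, COX7B ranged from -0.0294 to 0.124, ALDOA from -0.122 to 0.0859, MLXIPL from -0.0267 to 0.190, COL9A3 from -0.0144 to 0.337, SMIM26 from -0.0446 to 0.106, COA3 from -0.0161 to 0.0432 and CMC1 from -0.00787 to 0.0562.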
